A study of Homo sapiens with 2 samples.

Results

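The genes described here are 44 inflammatory genes, most of which the transcription factor NF-kB is known to control or which act in its pathway. They are chemokines, cytokines, NF-kB feedback genes, acute-phase and complement genes, and a few effectors. Receptors of the IL-6 and TNF families and SOCS3, an inhibitor of IL-6 signalling, complete the list. The 44 genes were taken by symbol from a list that names no measured value but was drawn up with earlier results of these data known. Of the 44 genes, 42 had a probe set with that gene as its single symbol, among 18417 genes measured in all, and CSF2 and BIRC3 were not analysed here. RNA bound to the protein Argonaute2 (Ago2) was immunoprecipitated from cells of A549, a long-established line from a human lung adenocarcinoma, and hybridised to Affymetrix whole-transcript arrays. The first group was A549 cells overexpressing the microRNA miR-130b and the second was A549 cells transfected with an empty vector, with 1 array in each. The labels give no dose, time after transfection or vector, and their extraction protocol speaks of excised tissue, which a cell line is not, and of a kit used to purify microRNAs. How the precipitated mRNA was purified is therefore uncertain. There were no replicates, so differences carry neither a replicate error nor a p-value and describe these 2 arrays only.

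NF-kB is a family of dimeric transcription factors held in the cytoplasm by inhibitor proteins, the IkB family. Signals from TNF, IL-1 or Toll-like receptors lead to the destruction of the inhibitor, and the released dimers bind kappa B sites and induce chemokines, cytokines and adhesion molecules. The same dimers induce their own inhibitors, which ends the response. In airway epithelium these genes recruit neutrophils and supply acute-phase and complement proteins. Ago2 carries microRNAs and holds the mRNAs that they pair with, mostly through the seed, which is bases 2 to 8 of the microRNA.

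The overexpressed microRNA is shown because Ago2 pairs it with mRNAs mostly through its seed. Seed matches in the mRNAs of the module genes were not searched, so none is called a target here. Below are its 3p arm and some other human microRNAs with the same seed, with the seed in capitals. They are given 5′ to 3′ from RefSeq (GRCh38.p14), where hsa-miR-3666 and hsa-miR-4295 share the seed and are not shown.
hsa-miR-130b-3p: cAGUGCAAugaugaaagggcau
hsa-miR-301a-3p: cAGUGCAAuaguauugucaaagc
hsa-miR-301b-3p: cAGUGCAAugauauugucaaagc
hsa-miR-454-3p: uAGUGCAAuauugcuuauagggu
The probe set of MIR130B, the gene of miR-130b and not its mature form, read 12.64 on the miR-130b array and 6.66 on the empty-vector array on the log2 scale. The mRNA of Ago2 read 11.66 with miR-130b and 11.41 with the empty vector.

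A kappa B site is the DNA element that NF-kB binds, and matches to it upstream of the module genes are shown next, because genes with closely similar matches differed unequally between the arrays. The search used the kappa B consensus and the motif GGAANTTCC, on both strands, over 300 bases that start 250 bases before the RefSeq gene start. The motifs can overlap, and overlapping matches were joined into 1. Of the 34 module genes with a promoter in the RefSeq table, 19 (55.9%) held a match, against 3090 of 27305 promoters of all genes (11.3%). Many of these genes are known for such sites, so this share describes how they were chosen. Each line gives 30 bases on the gene's own strand, with the match in capitals and GRCh38.p14 coordinates. The first 6 belong to genes that were at least 1.5-fold lower with miR-130b.
LCN2 (chr9:128149268-128149297, plus strand): cagcactccgGGAATGTCCCtcactctccc
PTX3 (chr3:157436743-157436772, plus strand): accaaattcaGGGGAACTCCCgttaccgca
ICAM1 (chr19:10270923-10270952, plus strand): tgctttagcttGGAAATTCCggagctgaag
IL6 (chr7:22727117-22727146, plus strand): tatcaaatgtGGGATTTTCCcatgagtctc
CFB (chr6:31945973-31946002, plus strand): gcagctcagcGGGGCCCTCCcgcttggatg
CXCL8 (chr4:73740467-73740496, plus strand): ttgcaaatcgtGGAATTTCCtctgacataa
The next 7 belong to genes that differed by less than 1.5-fold.
CXCL1 (chr4:73869304-73869333, plus strand): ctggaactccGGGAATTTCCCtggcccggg
CXCL2 (chr4:74099254-74099283, minus strand): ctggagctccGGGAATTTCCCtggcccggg
CXCL3 (chr4:74038749-74038778, minus strand): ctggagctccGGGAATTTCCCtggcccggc
CXCL5 (chr4:73998749-73998778, minus strand): catgagttcaGGGAATTTCCCcagcatccc
NFKBIA (chr14:35404811-35404840, minus strand): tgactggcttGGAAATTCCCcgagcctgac
NFKB1 (chr4:102501300-102501329, plus strand): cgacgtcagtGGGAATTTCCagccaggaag
NFKBIZ (chr3:101827757-101827786, plus strand): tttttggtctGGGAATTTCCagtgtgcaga
CXCL1, CXCL2, CXCL3, CXCL5 and CXCL6 carry the same 11-letter match, GGGAATTTCCC, which 24 of the 27305 promoters hold on either strand. A match in these letters is a description and need not be a site that is bound.

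Values are log2 expression values as deposited, and a difference is the value on the miR-130b array minus that on the empty-vector array. Genes whose mean of the 2 arrays reached 8.64, the median over the 18417 genes, were kept, and they numbered 9209. Of the 42 module genes 30 were kept, and 29 of these lay above that level on both arrays. The exception was IL32, which was below it with miR-130b. In the 356 kept genes with more than 1 distinct probe set, the difference was compared between probe sets of the same gene. Its pooled SD within genes was 0.16. This probe-set SD says nothing of the spread between cultures or between precipitations. Background was gauged from 341 olfactory receptor genes, whose 95th percentile was 7.17 with miR-130b and 7.08 with the empty vector.

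The module genes were lower in the miR-130b precipitate as a group, and unevenly. The list was drawn up with earlier results of these data known, so the counts and shares below describe it and test nothing. Of the 30 kept, 23 had a lower value with miR-130b and 7 a higher one, while 48.4% of all kept genes were lower. Their median difference was -0.30, beside 0.0100 for all kept genes, and over all 42 measured it was -0.22, beside 0.053 for all 18417 genes. LCN2, PTX3, IRAK2 and ICAM1 were at least 2-fold lower, 4 of 30, while 1.6% of all kept genes were. None was at least 2-fold higher, while 1.32% of all kept genes were. At a threshold of 1.5-fold, 12 of the 30 were lower and 0 were higher, where the shares of all kept genes were 5.87% lower and 5.04% higher. By more than 2 probe-set SDs (0.33), 14 were lower, beside 15.4% of all kept genes, and 1 was higher, beside 14.2%. The other 15 differed by no more than that, as did 70.4% of all kept genes. No RNA from before the precipitation was analysed here, so less mRNA in the cells and a smaller share of it bound to Ago2 cannot be told apart. Likewise, fewer cells that express a gene and less RNA per cell cannot be told apart.

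**Figure D1:**
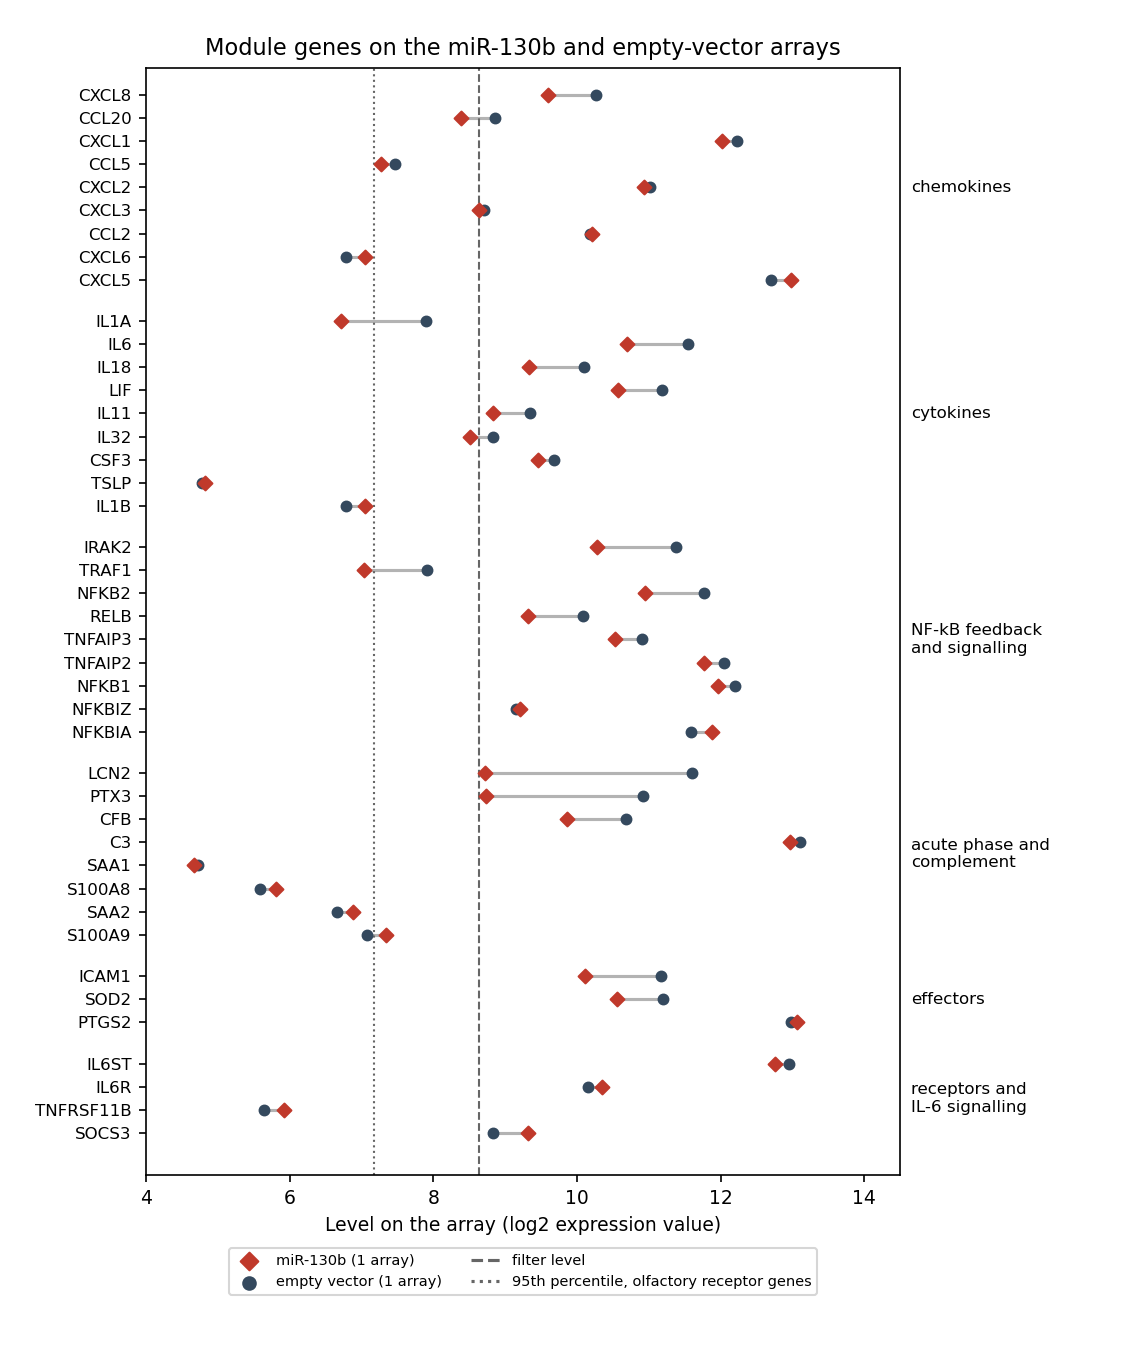
Level of each of the 42 module genes on the miR-130b array (red diamonds) and the empty-vector array (dark circles), in log2 expression values and grouped by role, 1 array each. The dashed line is the filter level (8.64) and the dotted line the higher of the 2 olfactory receptor 95th percentiles (7.17). LCN2 and PTX3 have the longest spans, and 7 genes lie left of the dotted line on both arrays.

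The largest differences were in acute-phase genes. LCN2 encodes lipocalin 2, which withholds iron from bacteria by binding their siderophores. It read 8.71 with miR-130b and 11.60 with the empty vector, a difference of -2.89 or 7.41-fold lower. Only 3 of the 9209 kept genes had a more negative difference. PTX3, a long pentraxin that binds microbes and activates complement, read 8.74 with miR-130b and 10.92 with the empty vector. It was 4.54-fold lower, the 14th most negative difference among kept genes. With miR-130b both lay just above the filter level. Whether array background makes these folds too small was not tested.

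Upstream sequences of LCN2 and PTX3 are printed because these genes had the largest differences. Each run gives the 250 bases before the RefSeq start on the gene's own strand (GRCh38.p14), with the kappa B match in capitals.
LCN2 (chr9:128149203-128149452, plus strand): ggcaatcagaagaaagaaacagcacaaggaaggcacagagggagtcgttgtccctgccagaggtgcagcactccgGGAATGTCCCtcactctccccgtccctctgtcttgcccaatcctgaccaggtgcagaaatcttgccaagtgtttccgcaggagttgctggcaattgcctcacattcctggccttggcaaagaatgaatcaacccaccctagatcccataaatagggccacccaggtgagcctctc
PTX3 (chr3:157436600-157436849, plus strand): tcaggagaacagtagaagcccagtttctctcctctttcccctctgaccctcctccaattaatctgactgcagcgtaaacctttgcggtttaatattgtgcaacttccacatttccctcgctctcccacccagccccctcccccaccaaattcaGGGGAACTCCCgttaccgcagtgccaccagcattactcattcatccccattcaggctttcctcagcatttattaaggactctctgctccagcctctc
The match begins 175 bases before the start in LCN2 and 97 bases before it in PTX3.

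The complement genes were unequal. CFB, the complement factor B that forms the alternative-pathway convertase, read 9.86 with miR-130b and 10.68 with the empty vector, a difference of -0.82. Its 3 probe sets gave -0.86, -0.88 and -0.72, all lower with miR-130b. Whether these probe sets share target sequence was not checked, so their likeness is not independent support. C3, the central complement protein that this convertase cleaves, read 12.97 with miR-130b and 13.10 with the empty vector. Its difference of -0.14 was within the probe-set SD. The serum amyloid and calprotectin genes were near the level of olfactory receptor genes. SAA1 read 4.67 with miR-130b and 4.72 with the empty vector, SAA2 read 6.88 with miR-130b and 6.66 with the empty vector, and S100A8 read 5.81 with miR-130b and 5.58 with the empty vector. SAA1 and SAA2 are close copies, so their probe sets may share signal. S100A9 read 7.34 with miR-130b and 7.08 with the empty vector, at the edge of that level. The class median was -1.50 over the 4 kept genes and -0.091 over all 8 measured, so the class value rests on LCN2, PTX3 and CFB.

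Cytokines were lower in all 6 kept members, with a median of -0.56, where 48.4% of all kept genes were lower. IL6, the pleiotropic cytokine that drives the hepatic acute-phase response, read 10.70 with miR-130b and 11.55 with the empty vector, a difference of -0.84 (1.79-fold lower). IL18, an IL-1 family cytokine released after caspase cleavage, read 9.33 with miR-130b and 10.09 with the empty vector. LIF, which signals through the same co-receptor as IL-6, read 10.58 with miR-130b and 11.19 with the empty vector. These 3 were at least 1.5-fold lower. IL11, another IL-6 family cytokine, read 8.83 with miR-130b and 9.34 with the empty vector, a difference of -0.51. IL32, a pro-inflammatory cytokine of epithelial and immune cells, differed by -0.32, and CSF3, the granulocyte growth factor G-CSF, by -0.23. Both of those lay within 2 probe-set SDs.

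The remaining cytokines were below the filter. IL1A, the alarmin IL-1 alpha, read 6.72 with miR-130b and 7.89 with the empty vector. The miR-130b value lies within the olfactory receptor range, so the measured difference of -1.18 depends on background and IL1A is not counted among the genes past 2-fold. Of all genes below the filter, 1.14% had values at least 2-fold lower. IL1B, its neighbour in RefSeq with no coding gene between them, read 7.05 with miR-130b and 6.78 with the empty vector, within that range on both arrays. TSLP, an epithelial cytokine that acts on dendritic cells, read 4.82 with miR-130b and 4.77 with the empty vector and was also at that level.

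Of the kept chemokines, CXCL8 alone was lower by more than 2 probe-set SDs, as were 15.4% of all kept genes. The 6 kept chemokines had a median of -0.077, with 4 lower and 2 higher. Of these, 5 lay within 2 probe-set SDs, as did 70.4% of all kept genes. CXCL8, interleukin 8, the main human neutrophil attractant, read 9.60 with miR-130b and 10.27 with the empty vector, a difference of -0.67 (1.59-fold lower). CXCL1 read 12.02 with miR-130b and 12.23 with the empty vector, and CXCL2 read 10.93 with miR-130b and 11.02 with the empty vector. Both attract neutrophils through CXCR2, as does CXCL3, which read 8.64 with miR-130b and 8.71 with the empty vector. CXCL1, CXCL2 and CXCL3 are close paralogs, so cross-hybridisation between them is possible. CXCL5, a neutrophil attractant of epithelial cells, went the other way, at 12.98 with miR-130b and 12.70 with the empty vector. The differences of CXCL1, CXCL2, CXCL3 and CXCL5, which were -0.22, -0.088, -0.065 and 0.27, lay within 2 probe-set SDs.

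The CXCL genes of this list are neighbours in RefSeq, in the order CXCL8, CXCL6, CXCL1, CXCL5, CXCL3 and CXCL2, with 0 to 2 other coding genes between consecutive ones. CXCL6, between CXCL8 and CXCL1, was at olfactory receptor level, with 7.04 with miR-130b and 6.78 with the empty vector. Within this cluster CXCL8 was the 1 gene past 1.5-fold. Of the CC chemokines, CCL2, the monocyte attractant MCP-1, read 10.20 with miR-130b and 10.19 with the empty vector. Its difference of 0.018 turned negative when the arrays were centred on their median difference. CCL20, which attracts CCR6-bearing cells, lay just under the filter at 8.38 with miR-130b and 8.86 with the empty vector. Its difference of -0.49 exceeds 2 probe-set SDs, but that SD was taken from kept genes only. CCL5, or RANTES, read 7.27 with miR-130b and 7.47 with the empty vector, slightly above the olfactory receptor percentiles.

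**Figure D2:**
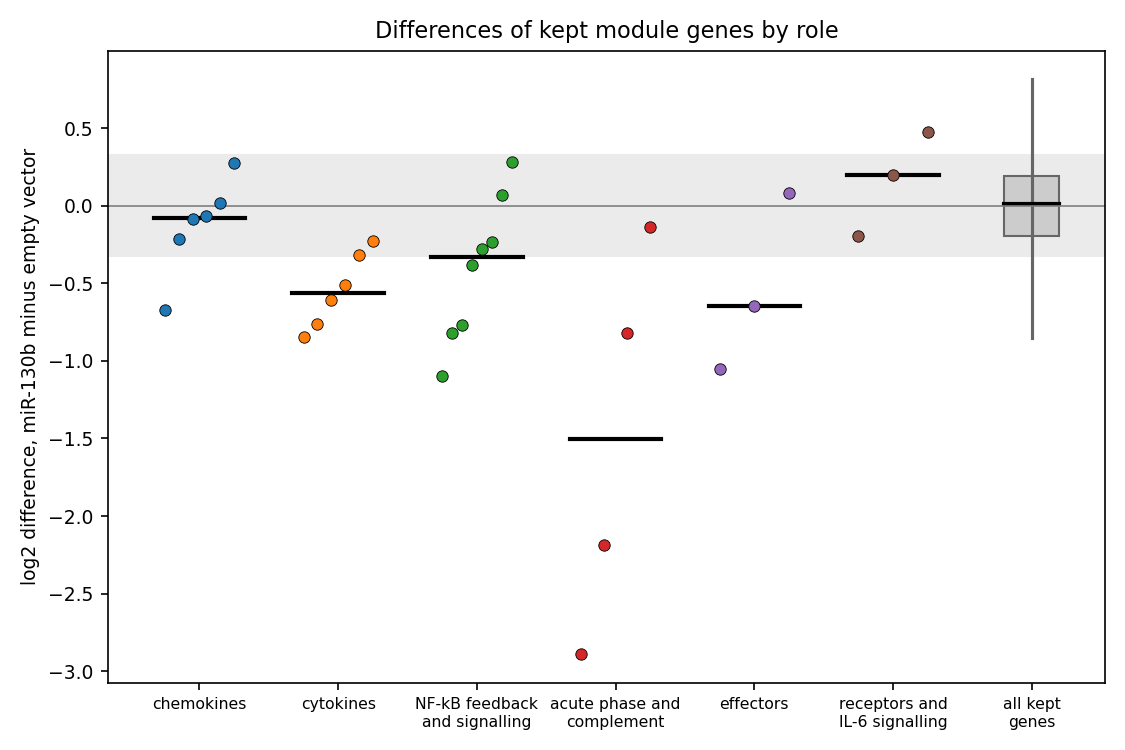
Log2 difference (miR-130b minus empty vector) of the 30 kept module genes by role, with a bar at each class median. The grey band is 2 probe-set SDs either way (0.33), and the box at the right shows all 9209 kept genes (quartiles, with lines to the 2.5th and 97.5th percentiles, -0.85 and 0.81). The kept acute-phase genes reach -2.89. All 6 cytokines lie below 0, as do 48.4% of all kept genes, and 5 of 6 chemokines lie in the band, as do 70.4%.

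Among NF-kB subunits in the list, NFKB2 and RELB of the non-canonical pathway were at least 1.5-fold lower and NFKB1 was not. NFKB2, the p100 precursor of p52, read 10.95 with miR-130b and 11.77 with the empty vector, a difference of -0.82 (1.76-fold lower). RELB, the partner of p52, read 9.31 with miR-130b and 10.08 with the empty vector, 1.71-fold lower. NFKB1, the p105 precursor of p50, read 11.96 with miR-130b and 12.20 with the empty vector. Its difference of -0.24 was within 2 probe-set SDs. RELA, the canonical subunit p65, and REL are not in the list and were added after their values were seen. RELA read 10.37 with miR-130b and 10.44 with the empty vector, and REL read 10.23 with miR-130b and 10.18 with the empty vector. No test of the contrast between these subunits was possible with 1 array in each group.

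Of the NF-kB regulators NFKBIA, TNFAIP3 and NFKBIZ, TNFAIP3 alone differed by more than 2 probe-set SDs. NFKBIA encodes IkB-alpha, the inhibitor that NF-kB induces to end its own activity. It read 11.88 with miR-130b and 11.59 with the empty vector, a difference of 0.28. TNFAIP3, the ubiquitin-editing inhibitor A20, read 10.53 with miR-130b and 10.91 with the empty vector, a difference of -0.38. NFKBIZ, the nuclear IkB-zeta that co-activates genes such as LCN2 and IL6, read 9.21 with miR-130b and 9.14 with the empty vector, 0.066 apart. The differences of NFKBIA and NFKBIZ lay within 2 probe-set SDs and that of TNFAIP3 outside.

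Signalling adaptors were led by IRAK2. IRAK2, a kinase of the IL-1 and Toll-like receptor complex, read 10.28 with miR-130b and 11.38 with the empty vector, a difference of -1.10 (2.14-fold lower). TRAF1, an adaptor of TNF-family receptors, was below the filter at 7.04 with miR-130b and 7.92 with the empty vector, and its miR-130b value was in the olfactory receptor range. TNFAIP2, a TNF-induced gene linked to membrane protrusions, read 11.77 with miR-130b and 12.05 with the empty vector, a difference of -0.28 that lay within 2 probe-set SDs. The class of NF-kB feedback and signalling genes had a median of -0.33 over 8 kept genes, with 6 lower and 2 higher.

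Of the effectors, ICAM1 and SOD2 were lower and PTGS2 was not. ICAM1, the adhesion molecule that leukocytes bind through their integrins, read 10.12 with miR-130b and 11.17 with the empty vector, 2.08-fold lower. SOD2, the mitochondrial superoxide dismutase, read 10.56 with miR-130b and 11.20 with the empty vector, 1.56-fold lower. PTGS2, the prostaglandin synthase COX-2, read 13.06 with miR-130b and 12.99 with the empty vector. Its difference of 0.078 was under the probe-set SD.

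The IL-6 receptor genes and their feedback inhibitor did not share a direction. IL6R, the ligand-binding chain, read 10.35 with miR-130b and 10.16 with the empty vector. IL6ST, the shared signal-transducing chain gp130, read 12.76 with miR-130b and 12.95 with the empty vector, and both differences lay within 2 probe-set SDs. SOCS3, the inhibitor that STAT3 induces downstream of gp130, read 9.31 with miR-130b and 8.84 with the empty vector. Its difference of 0.48 was the largest increase in the module and the 1 increase beyond 2 probe-set SDs, while 1304 of all 9209 kept genes (14.2%) were higher by that much. TNFRSF11B, the decoy receptor osteoprotegerin, was at olfactory receptor level, with 5.92 with miR-130b and 5.65 with the empty vector.

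Of the 12 module genes below the filter, 5 were lower and 7 higher with miR-130b, beside 32.8% of all genes below the filter that were lower. CXCL6, IL1B, TSLP, SAA1, SAA2, S100A8 and TNFRSF11B were under the olfactory receptor percentile on both arrays. Their differences ran from -0.047 to 0.27, and the olfactory receptor genes had a median difference of 0.072. No direction is read from these 7 genes.

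**Figure D3:**
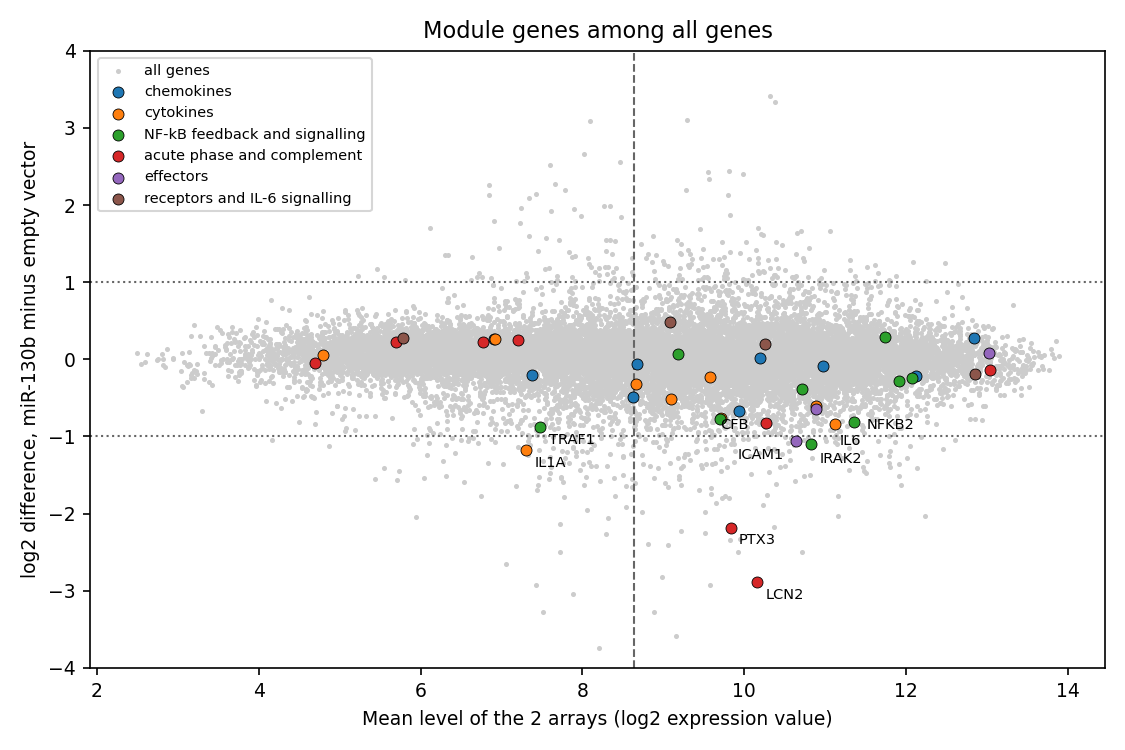
Log2 difference (miR-130b minus empty vector) against the mean level of both arrays for all 18417 genes (grey) and for the module genes by role (coloured). The dashed line is the filter level (8.64), the dotted lines mark 2-fold, and 2 genes lie above the plotted range. LCN2 (-2.89) and PTX3 (-2.18) are the lowest module genes, and most others lie within 2-fold.

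A kappa B match upstream was as frequent in kept module genes at least 1.5-fold lower as in the others. Those others include genes that were lower by less than 1.5-fold. The counts are too small to test a link in either direction. Of kept module genes with a promoter in the table, 6 of the 9 that were at least 1.5-fold lower held a match, and so did 10 of the 15 others. RELB, IL18 and LIF, also at least 1.5-fold lower, had no promoter in the table. The 16 kept genes with a match had a median difference of -0.28, from -2.89 to 0.28, and 13 of them were lower. The 8 with no match in this window, IRAK2, NFKB2 and SOD2 among them, had a median of -0.39, from -1.10 to 0.48. Of these 8, 5 were lower. Kappa B sites outside this window were not searched. CXCL8 and CXCL5 have matches that begin 91 bases before the start, and their differences were -0.67 and 0.27.

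**Figure D4:**
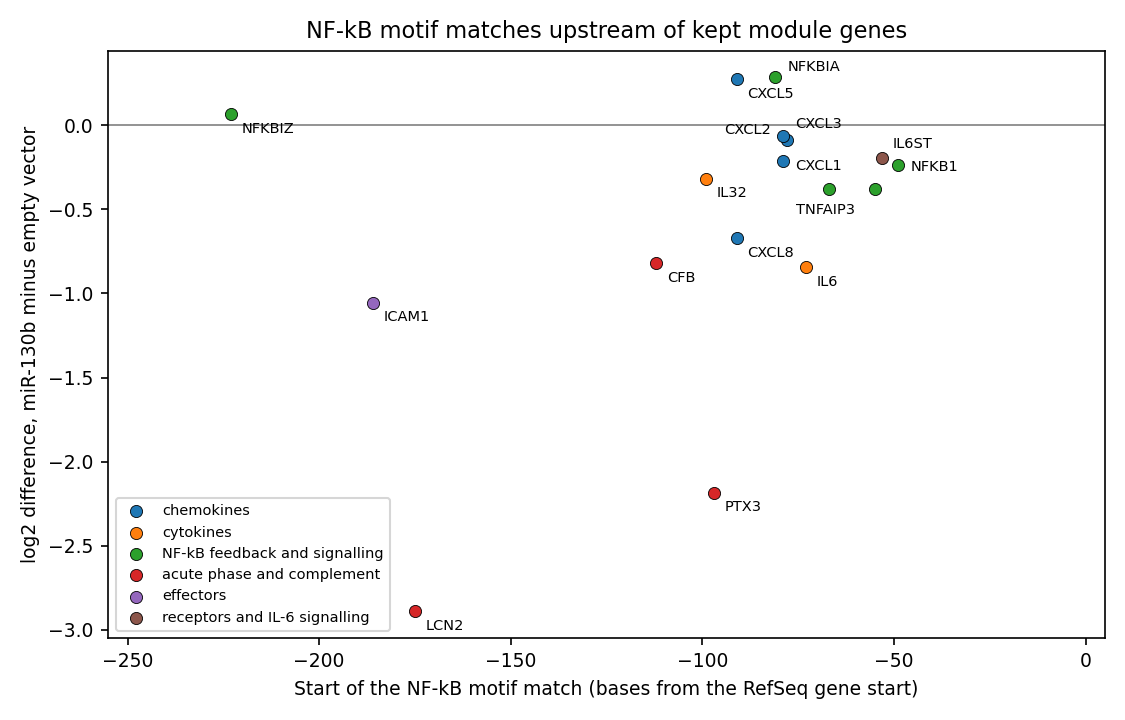
Log2 difference (miR-130b minus empty vector) of the 16 kept module genes with a kappa B match, against the start of the match in bases from the RefSeq gene start, coloured by role. TNFAIP3 has 2 matches and 2 points. Matches between 50 and 100 bases upstream belong to genes from -2.18 (PTX3) to 0.28 (NFKBIA).

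Genes of the wider NF-kB pathway, listed apart from the module, showed no common shift. Of 49 measured receptors, adaptors, kinases and regulators, 37 were kept, with 18 lower, 19 higher and a median of 0.0048. None of the 37 was past 2-fold, where 1.6% of all kept genes were at least 2-fold lower and 1.32% at least 2-fold higher. The most negative were RIPK2, the kinase downstream of NOD receptors, at -0.78, the inhibitor NFKBIE at -0.63 and TNIP1, a partner of A20, at -0.61. The most positive were IL1R1, the signalling IL-1 receptor, at 0.69, the nuclear cofactor BCL3 at 0.60 and the kinase MAP3K8 at 0.52. Below the filter, the double-stranded RNA receptor TLR3 read 7.16 with miR-130b and 8.51 with the empty vector.

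Other known NF-kB targets outside the module were divided. Of 40 measured, 20 were kept, with 11 lower, 9 higher and a median of -0.021. PLAU, the urokinase plasminogen activator, differed by -1.28, EBI3, a subunit of IL-27 and IL-35, by -1.03, and the bradykinin receptor BDKRB1 by -0.58. The most positive were JUNB at 0.73, the lymphangiogenic factor VEGFC at 0.43 and CSF1, the macrophage growth factor, at 0.40. Below the filter, the death ligand TNFSF10 read 7.01 with miR-130b and 5.66 with the empty vector, both in the olfactory receptor range, and TNFSF15 read 8.70 with miR-130b and 7.46 with the empty vector.

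Acute-phase and complement genes outside the module went both ways. Of 37 measured, 14 were kept, with 8 lower, 6 higher and a median of -0.13. FGA, the fibrinogen alpha chain, read 8.11 with miR-130b and 11.04 with the empty vector, a difference of -2.93 close to that of LCN2. FGL1, a fibrinogen-like hepatokine, and the copper carrier ceruloplasmin, CP, both differed by -1.40. FGB read 7.15 with miR-130b and 9.42 with the empty vector and was below the filter, as was AGT, angiotensinogen, at 7.40 with miR-130b and 8.59 with the empty vector. The complement protease C1R was 1.01 higher, the complement inhibitor CD59 0.84 higher, and LBP, which binds lipopolysaccharide, 0.81 higher. 

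**Figure D5:**
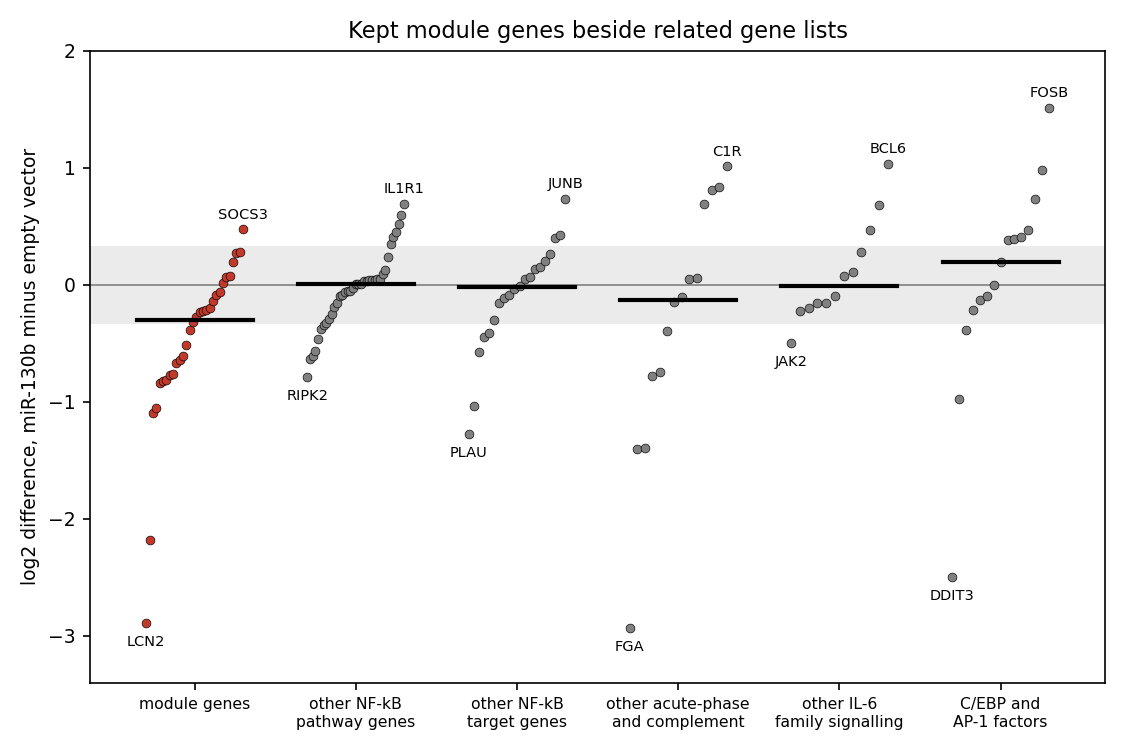
Log2 difference (miR-130b minus empty vector) of kept genes in the module (red) and in 5 related lists (grey), sorted within each list, with a bar at each median and the lowest and highest gene named. The grey band is 2 probe-set SDs either way (0.33). The module median is -0.30, and those of the other lists run from -0.13 to 0.19.

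Markers were read beside these values. KRT8 and KRT18, keratins of simple epithelia, lay between 13.19 and 13.48 with miR-130b and between 13.22 and 13.38 with the empty vector. EPCAM was below the filter, at 6.80 with miR-130b and a difference of -0.20, as were the alveolar markers SFTPC and NKX2-1. CDH1, E-cadherin, was lower by 1.12 on the log2 scale with miR-130b, and the keratin KRT19 was higher by 0.37. Of 11 measured epithelial and A549 markers, 5 were lower and 6 higher with miR-130b. The 8 kept ones had a median difference of 0.073, with 2 lower and 6 higher. Of 12 measured leukocyte markers 6, among them PTPRC, CD3E and LYZ, were under the olfactory receptor percentile on both arrays. Of the 12, 3 were lower and 9 higher with miR-130b, and their summed linear value was 2855 with miR-130b and 3916 with the empty vector. Without CD68 the sum was 1862 with miR-130b and 1661 with the empty vector. CD68 read 9.96 with miR-130b and 11.14 with the empty vector. CD14 read 9.53 with miR-130b and 8.89 with the empty vector, and ITGAM, below the filter, differed by -0.66. The part of these markers in the module's values was not tested.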

How the data were processed

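RNA precipitated with an anti-Ago2 antibody from 2 A549 samples was measured, 1 per group, on Affymetrix whole-transcript arrays, per the labels. The authors deposited log2 expression values per probe set (33297 per array, from 1.95 to 14.17), and the log2 unit was read from the values. For background correction, normalization and software, the sources used here give nothing. The array medians were 7.77 with miR-130b and 7.77 with the empty vector, so a global difference in precipitated RNA may have been removed. Probe sets were named from the supplied platform annotation, where 19460 had 1 symbol, 1754 several and 12083 none. Symbols were updated through Entrez identifiers to RefSeq names (19429 matched), IL8 being CXCL8, and probe sets were averaged per gene. No coordinates of probe sets are given because the files name no build. The members, lists and classes were chosen with earlier results of these data known. All 44 module genes were named by rule, with MIR130B and AGO2 as checks. Of each related list the text names the 3 largest differences each way among kept genes and any gene past 2-fold. RELA, REL and CEBPD were added after their values were seen. Alternatives were other filters, thresholds, normalizations, the brightest probe set and the mean. Counting was tested on simulated data. Python 3.11.15, pandas 2.3.3, R 4.3.3 and limma 3.58.1 were used. The number of arrays limits the precision.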

Additional observations from a re-analysis of the deposited data

How the results depend on the processing

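No paired analysis was possible because each group has 1 array. The 42 module differences were recomputed under 4 settings (centring, quantile normalization, cyclic loess and the brightest probe set). All 168 values moved by less than the probe-set SD, by 0.061 at most. Many of them could hardly move. Centring shifted every gene by the same amount. The brightest probe set could change CFB only, because the other genes have 1 probe set or, for SAA2, 2 with equal values. The sign changed in 2 of the 168 values, CCL2 after centring and SAA1 after quantile normalization. The count of module genes at least 2-fold lower was 4 under those settings and 5, with IL1A, both with no filter and for genes with an array above the olfactory receptor percentile. The miR-130b value of IL1A is in the olfactory receptor range. The count was 2 with the filter at the 75th percentile, which left 16 module genes, and 12 at a threshold of 1.5-fold. The count at least 2-fold higher was 0 under all settings. The module's mean was -0.48, beside its median of -0.30. The acute-phase and complement median was -0.091 with no filter, -0.14 at the 75th percentile, where C3 was the 1 gene left, and -0.82 for genes with an array above the olfactory receptor percentile. At the 75th percentile the cytokine median was -0.73, and the receptor and IL-6 signalling median was -0.20, where IL6ST was the 1 gene left. No detection calls were used, so dim genes were judged against olfactory receptor genes only.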

Other observations

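Transcription factors that share promoters with NF-kB were measured as a list of C/EBP and AP-1 genes. Of 19 measured, 15 were kept, with 7 lower, 8 higher and a median of 0.19. DDIT3, the stress-induced C/EBP family member CHOP, read 9.47 with miR-130b and 11.96 with the empty vector. CEBPG differed by -0.97 and CEBPB, the factor known as NF-IL6, by -0.38. The immediate early AP-1 genes FOSB, FOS and JUNB differed by 1.51, 0.98 and 0.73. CEBPD, which is induced in the acute-phase response, differed by 0.47.

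Signalling genes of the IL-6 family outside the module had a median of -0.011 over 12 kept genes, with 6 lower and 6 higher. BCL6, a transcriptional repressor, read 10.50 with miR-130b and 9.47 with the empty vector, a difference of 1.04. The kinase PIM1 differed by 0.68 and LIFR, the LIF receptor, by 0.47. JAK2 differed by -0.50, STAT5B by -0.22 and OSMR, the oncostatin M receptor, by -0.20. LIFR thus read higher with miR-130b, whereas its ligand gene LIF read lower, and no test of that contrast was possible with 1 array in each group.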
